A study of Mus musculus with 6 samples.

Results

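The genes described here are 37 genes of sugar metabolism and of the response to low oxygen, measured in bone marrow-derived macrophages (BMDMs) after co-culture with neutrophils. They were chosen by symbol: 3 glucose transporters, 17 glycolytic enzymes, 3 regulators of glycolytic flux, 2 lactate transporters, 2 alpha subunits of the hypoxia-inducible factor (HIF), 2 of its prolyl hydroxylases and 8 of its target genes. All 37 symbols were found among the 55335 rows of the expression table. They took 38 rows, because *Aldoa* is listed under a second identifier (ENSMUSG00000114515) that was near 0. Levels are in FPKM, the fragments of a gene divided by its transcript length and by the mapped fragments of the library. A gene was tested if it averaged 0.5 FPKM or more, and all 37 members were among the 13367 genes that did.

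RNA-seq values of 6 libraries were compared, 3 of each group. The BMDMs carried a wild-type (WT) genotype in both groups and had been grown from bone marrow for 7 days with 25 ng/ml of macrophage colony-stimulating factor (M-CSF). They were kept for 24 h with neutrophils that had been purified with magnetic beads from the injured spinal cord at 3 days post injury (dpi). The neutrophil donors were *Cd177* WT mice in one group (WT-labelled libraries) and *Cd177* knockout (KO) mice in the other (KO-labelled libraries). CD177 is a surface glycoprotein of neutrophils. The methods name male mice, with adult C57BL/6 animals of 8 weeks as the purchased WT strain, and describe contusion of the thoracic cord as the injury. Before RNA extraction, macrophages were recovered by flow cytometry as Ly6G- cells, so each library holds whatever Ly6G- cells the co-culture contained. No library of BMDMs without neutrophils was analysed here. No source says that replicates came from separate cultures or animals, so the p-values measure only the spread between these samples, which may be technical.

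The labels themselves could not be checked against the knockout in the sequenced macrophages, which were WT in both groups. *Cd177* was listed at 0.544, 0.309 and 0.521 FPKM in the WT-labelled libraries and at 1.79, 1.84 and 2.28 FPKM in the KO-labelled libraries. It was thus higher where the neutrophils were labelled as knockout (log2 difference 1.37 ± 0.16, limma adjusted p = 0.000827), the reverse of a loss of *Cd177*. Which cells this RNA came from was not tested. Directions below are therefore those between libraries as labelled. Libraries of one group correlated at 0.967 to 0.985 on the log2 scale and libraries of different groups at 0.905 to 0.917. Of 8 macrophage markers, 2 were lower in the KO-labelled libraries (*Fcgr1* and *Cd14*) and 2 were higher (*Adgre1* and *Mertk*). The other 4 did not pass the test. *Cd14* went from 1010 ± 150 to 99.4 ± 8.39 FPKM and *Fcgr1* from 121.2 ± 2.67 to 33.8 ± 0.714 FPKM. *Adgre1* went from 241.1 ± 20.5 to 296.9 ± 15.6 FPKM and *Mertk* from 19.3 ± 3.74 to 31.9 ± 4.31 FPKM. The summed level of the 8 was 6628 to 7990 FPKM in the WT-labelled and 7230 to 7917 FPKM in the KO-labelled libraries. It was mostly *Lyz2* (4922 ± 703 and 6144 ± 386 FPKM) and says little about the other markers. Of 14 neutrophil markers, 11 could be tested, of which 9 were higher in the KO-labelled libraries and 1 was lower (*Mmp8*, named after its values were seen), and in the KO-labelled libraries their sum was 542.1 to 554.8 FPKM against 199.3 to 258.6 FPKM. Of these, *Ltf* went from 3.92 ± 0.274 to 37.0 ± 2.93 FPKM, *Ngp* from 12.9 ± 2.29 to 107.1 ± 2.8 FPKM and *Camp* from 3.42 ± 0.777 to 12.8 ± 0.683 FPKM. *Ly6g*, the gene of the sorting marker, was listed at 0 in each WT-labelled library and at 0.403 to 0.66 FPKM in the KO-labelled libraries. The B cell markers *Cd79b* and *Ighm* went from 0.822 ± 0.177 to 4.10 ± 0.682 FPKM and from 0.247 ± 0.171 to 9.88 ± 0.587 FPKM, and both were higher by the test, while *Cd79a*, *Ms4a1* and *Pax5* were under 0.1 FPKM. The single tested T cell marker, *Cd4*, was also higher. Fibroblast and endothelial markers, mostly *Col1a1*, summed to 242.3 to 385.3 FPKM and 302.9 to 358.3 FPKM. Of the 3 tested, *Pdgfrb* was lower (19.4 ± 5.22 to 11.7 ± 1.64 FPKM, adjusted p = 0.0464) and the other two did not pass. None of the dendritic cell markers and 1 of 6 spinal cord markers reached the filter. The part of these cells in the results below was not tested.

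Glycolysis splits glucose into pyruvate in the cytosol. Glucose enters through facilitative transporters, hexokinase traps it as a phosphate, phosphofructokinase commits it to the pathway, and lactate dehydrogenase with the monocarboxylate transporters disposes of the end product as lactate. Under low oxygen the alpha subunits of HIF escape hydroxylation by the prolyl hydroxylases of the Egln family and capture by the VHL ubiquitin ligase, pair with ARNT and switch on genes for nearly every one of these steps. Inflammatory macrophages are known for a high rate of glycolysis and for HIF-1 alpha activity even in the presence of oxygen.

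Most of the 37 members were lower in the KO-labelled libraries. By limma on log2(FPKM + 0.5), where the pseudocount shrinks the differences of weakly expressed genes, 25 members were lower and 7 were higher at an adjusted p under 0.05 over all genes tested, and 5 did not pass. Among all genes tested, 10.5% were lower and 27.1% were higher by the same rule. In the same 25 members all KO-labelled libraries lay below all WT-labelled ones, against 14.4% of all genes, and in the same 7 members all lay above, against 37.5%. The study's threshold was a change of more than 2 times with an unadjusted p under 0.05, on DESeq2 results. Applied here to the limma values, it gave 11 lower and 2 higher members, against 4.43% and 6.68% of all genes. These counts depend on the pseudocount: the log2 difference of *Slc2a3* was 0.85 here and 1.22 with a pseudocount of 0.1. The median log2 difference of the members (KO-labelled minus WT-labelled) was -0.78. The median over all genes tested was 0.19 in the deposited values and -0.00 after median-of-ratios scaling, so that the members stood at a median of -0.97 relative to all genes. Of the called genes 72.0% were higher in the deposited values, 49.1% after median-of-ratios scaling and 55.7% after quantile normalization, and with either of these 26 members were lower and 4 were higher. Lower values in such bulk samples can reflect fewer cells of a type or less RNA per cell, which cannot be told apart here.

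**Figure D1:**
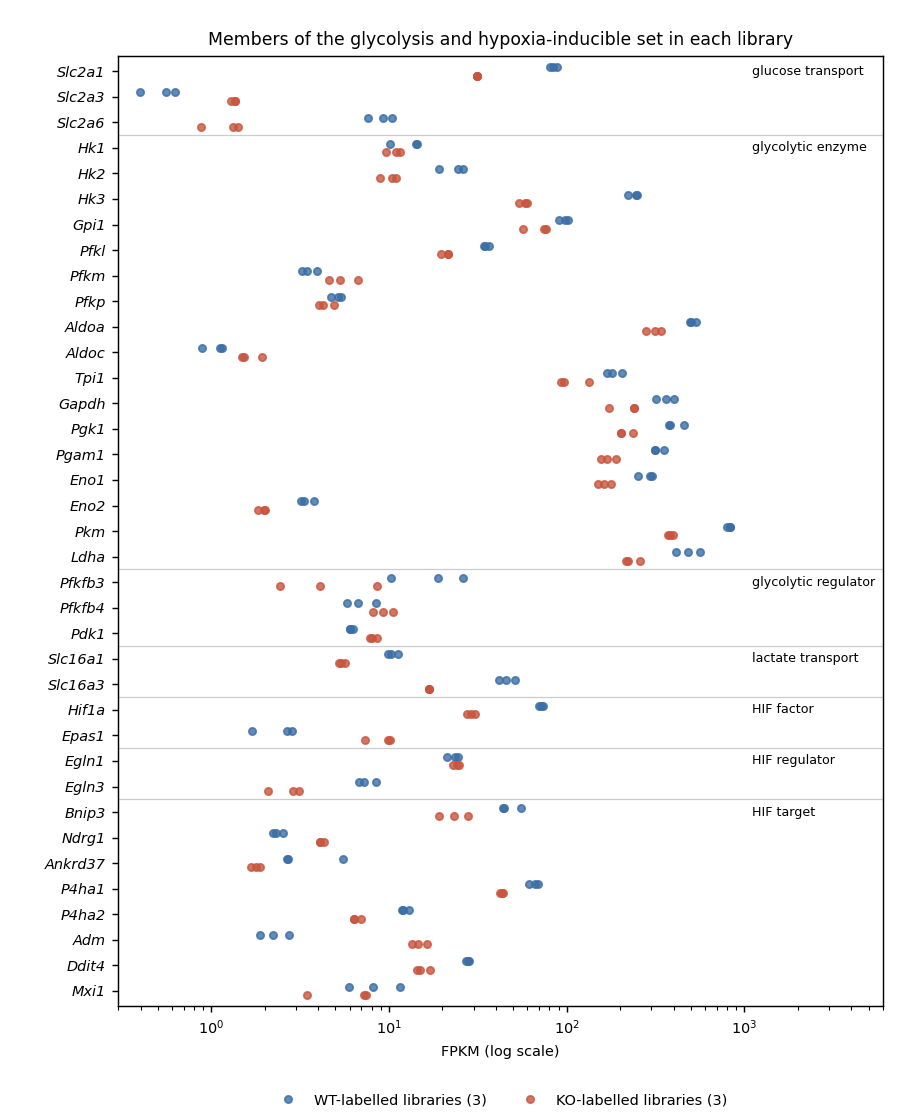
FPKM on a log axis of the 37 members, 1 point per library, with the 3 WT-labelled libraries in blue and the 3 KO-labelled libraries in red, grouped by role. The KO-labelled points lie fully to the left in 25 members and fully to the right in 7, among them *Adm* and *Epas1*.

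Promoters of a few members are shown because ACGTG and GCGTG are the core letters that HIF is known to bind. Binding was not measured in these libraries. RefSeq promoter windows (GRCm38.p6, the 250 bases before each annotated start) were found for 34 members, and *Slc2a3*, *Epas1* and *Ndrg1* had none. Both cores were searched on both strands, with CACGTG holding ACGTG on both. Either core was present in 31 of the 34 genes (91.2%), against 61.6% of genes tested and 41.5% of all genes in the table. The members were picked as glycolytic genes and HIF targets, so such a difference from other genes belongs to the choice and carries nothing about these libraries. Counted by window, since a gene can have several, it was 81.6% of the 49 windows of members and 55.7% of those of genes tested. ACGTG was present in 61.8% of the 34 members and in 25.2% of genes tested, and GCGTG in 64.7% and 50.2%. Either core was in 88% of the 25 lower members and in all 4 higher members with a window. ACGTG was in 18 of the lower and 1 of the higher members, and GCGTG in 14 and 4, too few higher members for a comparison. These are matches of letters, not sites of binding. The windows printed here were picked as examples without a fixed rule and do not stand for all lower members. *Gpi1*, *Tpi1* and *Eno2*, which were also lower, held neither core in their windows. The printed windows consist of G and C for 56.8% to 73.6% of their bases. The 5 windows belong to 4 members that were lower (phosphoglycerate kinase *Pgk1*, lactate dehydrogenase *Ldha*, lactate exporter *Slc16a3* and mitophagy receptor *Bnip3*) and to *Adm*, the member with the largest rise, with the cores in capitals on the strand of the gene (CACGT and CACGC are the cores read on the other strand). Their positions are chrX:106186850-106187099 (plus strand) for *Pgk1*, chr7:46845554-46845803 (plus strand) for *Ldha*, chr11:120948817-120949066 (plus strand) for *Slc16a3*, chr7:138909507-138909756 (minus strand) for *Bnip3* and chr7:110627407-110627656 (plus strand) for *Adm*.
Pgk1: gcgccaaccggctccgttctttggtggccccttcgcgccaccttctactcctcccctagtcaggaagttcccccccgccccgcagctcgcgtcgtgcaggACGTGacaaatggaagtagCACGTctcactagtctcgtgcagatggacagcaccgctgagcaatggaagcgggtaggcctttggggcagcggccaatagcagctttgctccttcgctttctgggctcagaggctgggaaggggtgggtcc
Ldha: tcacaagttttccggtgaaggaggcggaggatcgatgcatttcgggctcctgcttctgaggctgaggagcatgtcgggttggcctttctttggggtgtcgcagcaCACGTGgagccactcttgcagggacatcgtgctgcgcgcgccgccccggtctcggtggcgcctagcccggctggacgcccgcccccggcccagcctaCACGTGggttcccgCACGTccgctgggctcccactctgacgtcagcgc
Slc16a3: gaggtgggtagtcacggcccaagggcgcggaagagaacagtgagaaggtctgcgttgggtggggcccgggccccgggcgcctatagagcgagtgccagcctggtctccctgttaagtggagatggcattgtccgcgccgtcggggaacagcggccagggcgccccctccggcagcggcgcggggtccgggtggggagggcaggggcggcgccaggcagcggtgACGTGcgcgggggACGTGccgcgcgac
Bnip3: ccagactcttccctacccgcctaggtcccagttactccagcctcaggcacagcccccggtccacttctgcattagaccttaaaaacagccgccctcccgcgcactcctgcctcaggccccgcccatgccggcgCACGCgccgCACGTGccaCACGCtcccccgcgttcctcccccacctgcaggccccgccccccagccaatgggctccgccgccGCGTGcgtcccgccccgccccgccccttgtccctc
Adm: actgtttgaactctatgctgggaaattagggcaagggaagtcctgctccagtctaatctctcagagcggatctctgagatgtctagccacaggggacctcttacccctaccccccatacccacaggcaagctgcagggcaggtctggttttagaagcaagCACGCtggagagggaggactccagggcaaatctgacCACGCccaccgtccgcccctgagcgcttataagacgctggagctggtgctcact
The *Ldha* window, the first of its 2, held CACGTG at 2 places and a further ACGTG 30 to 34 bases before the start. *Slc16a3* held ACGTG at 2 places within its last 27 bases. The *Bnip3* window held CACGTG once, with GCGTG on either side of it, and the *Adm* window held only GCGTG, at 2 places.

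The 3 member genes of glucose transport were lower in sum. *Slc2a1*, which encodes GLUT1 and spans positions 119108711 to 119137983 of chromosome 4, was at 88.6, 84.0 and 80.5 FPKM in the WT-labelled libraries and at 31.4, 31.2 and 31.5 FPKM in the KO-labelled libraries. It fell by 1.41 ± 0.07 on the log2 scale (SE, n = 3 per group, adjusted p = 2.66e-05). *Slc2a6*, which encodes a transporter of the lysosome that is induced in activated macrophages, was at 10.4, 9.30 and 7.66 FPKM in the WT-labelled and at 1.33, 0.879 and 1.42 FPKM in the KO-labelled libraries. Its log2 difference was the lowest of all members, -2.49 ± 0.17 (adjusted p = 8.62e-05). *Slc2a3*, the gene of the high-affinity transporter GLUT3, went the other way from a low level. It was at 0.556, 0.622 and 0.395 FPKM in the WT-labelled and at 1.36, 1.37 and 1.29 FPKM in the KO-labelled libraries, with a log2 difference of 0.85 ± 0.14 (adjusted p = 0.00354). The 3 transporters summed to 94.0 ± 5.5 FPKM and 33.9 ± 0.404 FPKM (SD, n = 3), a ratio of 0.361. *Slc2a1* made up 89.8% of that sum in the WT-labelled and 92.5% in the KO-labelled libraries, so GLUT1 was the main one of the 3 by level in both groups. The share of *Slc2a3* went from 0.556% to 3.95%. Other tested genes of the family are not in this sum. *Slc2a8* (1.85 to 7.89 FPKM) and *Slc2a9* (1.85 to 3.95 FPKM) were higher and *Slc2a10* (2.28 to 1.43 FPKM) was lower. *Slc2a9* and *Slc2a10* are named after their values were seen.

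Lactate transport followed with a similar ratio. *Slc16a3*, the gene of the lactate exporter MCT4 on chromosome 11, was at 51.1, 45.8 and 41.4 FPKM in the WT-labelled and at 16.7, 16.8 and 16.7 FPKM in the KO-labelled libraries. It fell by 1.43 ± 0.10 on the log2 scale (adjusted p = 8.06e-05), and the 2 groups lay far apart beside the spread within each. *Slc16a1*, which encodes MCT1, a carrier that works in both directions, fell by 0.89 ± 0.09 (adjusted p = 0.000467) from 10.5 ± 0.716 to 5.41 ± 0.233 FPKM. The pair summed to 56.6 ± 4.44 FPKM and 22.2 ± 0.276 FPKM, a ratio of 0.392, and MCT4 supplied 81.3% of the sum in the WT-labelled and 75.6% in the KO-labelled libraries.

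Hexokinase was the glycolytic step with the lowest ratio between the groups. *Hk3*, the myeloid isozyme, encoded on chromosome 13 (55005985 to 55021385), was at 247.5, 246.0 and 220.0 FPKM in the WT-labelled and at 59.8, 54.2 and 58.6 FPKM in the KO-labelled libraries. It fell by 2.04 ± 0.09 (adjusted p = 1.10e-05), the largest fall among the 17 enzymes. *Hk2*, the inducible isozyme bound to mitochondria and a HIF target, was at 26.2, 24.4 and 19.1 FPKM against 10.4, 11.0 and 8.96 FPKM and fell by 1.16 ± 0.14 (adjusted p = 0.00105). *Hk1*, the housekeeping isozyme, did not pass the test, with 12.9 ± 2.44 and 10.7 ± 0.947 FPKM and a log2 difference of -0.24 (95% interval -0.61 to 0.13, adjusted p = 0.265). Without the third WT-labelled library, which was the lowest of its group, the difference was -0.40 (adjusted p = 0.0176), and without the second it was -0.16. The 3 isozymes summed to 273.9 ± 21.5 FPKM and 78.4 ± 2.92 FPKM, a ratio of 0.286. The share of *Hk3* in the sum went from 86.9% to 73.4%, and that of *Hk1* from 4.68% to 13.7%.

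The next steps showed smaller differences. *Gpi1*, the isomerase, was at 101.4, 98.1 and 90.7 FPKM in the WT-labelled and at 56.5, 76.5 and 74.5 FPKM in the KO-labelled libraries. Its groups did not overlap and it was lower by the test (-0.49 ± 0.13, adjusted p = 0.0253). That call was lost without the first WT-labelled (-0.46, adjusted p = 0.0805), the second WT-labelled (-0.48, 0.0697) or the first KO-labelled library (-0.35, 0.0545). *Pfkl*, the liver-type phosphofructokinase and main isozyme here, was at 36.5, 34.9 and 34.2 FPKM against 21.6, 19.6 and 21.5 FPKM and fell by 0.74 ± 0.08 (adjusted p = 0.000596). *Pfkm*, the muscle type, was higher, from 3.54 ± 0.348 to 5.54 ± 1.1 FPKM (0.57 ± 0.15, adjusted p = 0.0249). Without the second WT-labelled or the first or second KO-labelled library, its adjusted p was 0.0691, 0.0670 and 0.0699 with a difference of 0.55, 0.59 and 0.43. *Pfkp*, the platelet type, did not pass the test (-0.20, 95% interval -0.45 to 0.06). *Pfkp* overlaps the more abundant *Pitrm1* (12.0 against 4.76 FPKM) and *Pfkm* overlaps *Senp1* on the opposite strand, and whether strand was used in counting is not given in the sources used here, so both values are uncertain. The phosphofructokinase sum went from 43.9 ± 1.83 to 30.8 ± 0.641 FPKM, a ratio of 0.703, with *Pfkl* at 80.3% of it in the WT-labelled and 67.8% in the KO-labelled libraries and *Pfkm* at 8.06% and 17.9%.

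**Figure D2:**
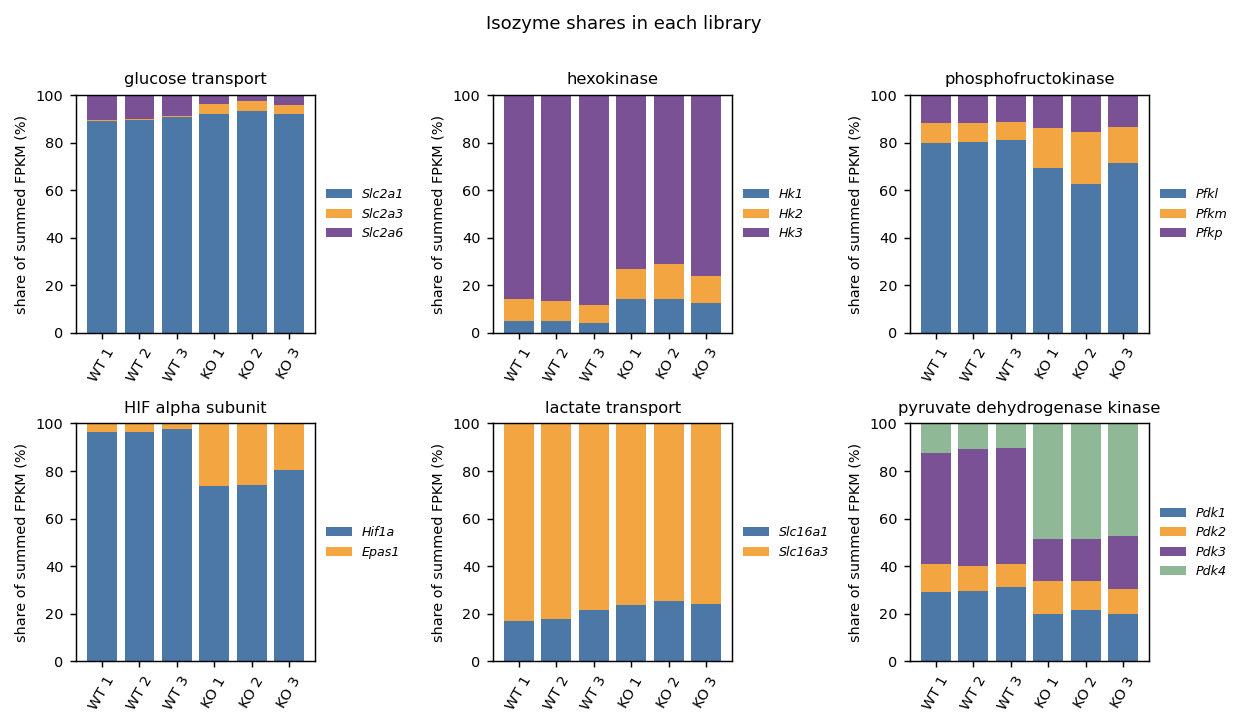
Share of each isozyme in the summed FPKM of its step (percent, stacked to 100) in each of the 6 libraries, for 6 steps. *Hk3*, *Pfkl*, *Hif1a* and *Slc16a3* took a smaller share in each KO-labelled library than in any WT-labelled one, and *Pdk4* took 10.5% to 12.2% in the WT-labelled and 47.3% to 48.5% in the KO-labelled libraries.

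The bifunctional enzymes PFKFB3 and PFKFB4 set the level of the fructose bisphosphate that activates phosphofructokinase most strongly, and of their genes only *Pfkfb3* passed the test. *Pfkfb3* was at 26.1, 10.3 and 18.8 FPKM in the WT-labelled and at 8.59, 4.10 and 2.45 FPKM in the KO-labelled libraries. The replicates scattered widely, the lowest WT-labelled value lay close above the highest KO-labelled one, and the difference of -1.83 ± 0.47 had an adjusted p of 0.0225. It did not pass without the first WT-labelled library (-1.54, adjusted p = 0.0704), nor without KO-labelled replicate 2 (-1.77, 0.0682) or 3 (-1.45, 0.0585). *Pfkfb4*, at 6.99 ± 1.38 and 9.29 ± 1.19 FPKM, did not pass (0.40, 95% interval 0.02 to 0.77, adjusted p = 0.0939), but did without the second WT-labelled library (0.54, adjusted p = 0.0374). *Pfkfb3* supplied 70.1% ± 13.9 of their sum in the WT-labelled and 33.5% ± 14.6 in the KO-labelled libraries.

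The trunk of the pathway, from aldolase to pyruvate kinase, was lower at each step. The 10 glycolytic enzyme genes that averaged 50 FPKM or more were all lower, with a median log2 difference of -0.86. Of the 7 below that level 3 were lower, 2 were higher and 2 did not pass. This level was not planned, and the shares of all genes above and below it were not computed. Over the 17 enzymes, 13 were lower and 2 were higher, against 10.5% and 27.1% of all genes tested. Among genes averaging at least 5 FPKM, those shares were 14.4% and 25.7%. The median of the 17 was -0.74, or -0.93 relative to all genes. *Aldoa*, the main aldolase, was at 495.5, 499.4 and 531.2 FPKM in the WT-labelled and at 313.4, 278.2 and 338.5 FPKM in the KO-labelled libraries (-0.72 ± 0.10, adjusted p = 0.00170). *Aldoc*, the brain-type aldolase, went from between 0.883 and 1.15 FPKM to between 1.49 and 1.93 FPKM and was higher (0.47 ± 0.14, adjusted p = 0.0391). Leaving out any 1 of the 6 libraries ended the call of *Aldoc*, with adjusted p between 0.0627 and 0.136 and differences between 0.38 and 0.52. *Tpi1*, triose phosphate isomerase, was at 180.0, 169.0 and 205.8 FPKM against 92.7, 96.2 and 134.0 FPKM (-0.79 ± 0.16, adjusted p = 0.00849). The third library of each group was the highest in it.

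*Gapdh*, the dehydrogenase at the start of the energy-yielding steps, was at 359.8, 320.2 and 404.1 FPKM in the WT-labelled and at 238.8, 172.9 and 239.7 FPKM in the KO-labelled libraries (-0.74 ± 0.16, adjusted p = 0.0104). A gene often taken as constant was thus lower between these libraries by more than their spread. *Pgk1*, which makes the first ATP of the pathway, was at 378.9, 382.4 and 457.3 FPKM against 202.5, 201.1 and 237.1 FPKM (-0.92 ± 0.11, adjusted p = 0.00108). *Pgam1*, the mutase, was at 312.1, 352.3 and 316.0 FPKM against 189.1, 155.8 and 169.6 FPKM (-0.93 ± 0.10, adjusted p = 0.000651). In both genes the groups were separated by a wide gap. *Eno1*, the main enolase, was at 295.7, 252.6 and 301.5 FPKM against 150.9, 162.4 and 177.8 FPKM (-0.79 ± 0.11, adjusted p = 0.00161). *Eno2*, the neuronal enolase, fell by 0.68 ± 0.11 (adjusted p = 0.00303) from 3.43 ± 0.311 to 1.95 ± 0.0987 FPKM, and its share of the enolase sum overlapped between the groups.

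*Pkm* and *Ldha* closed the series. *Pkm*, the pyruvate kinase gene and the most abundant member, on chromosome 9 (59656368 to 59679375), was at 830.3, 795.9 and 831.3 FPKM in the WT-labelled and at 380.1, 369.8 and 395.7 FPKM in the KO-labelled libraries. It fell by 1.10 ± 0.08 (adjusted p = 9.83e-05). The table gives 1 value per gene, so the M1 and M2 splice forms could not be told apart. *Ldha*, whose product turns pyruvate into lactate, was at 482.5, 413.9 and 564.0 FPKM against 219.9, 216.9 and 257.8 FPKM and fell by 1.06 ± 0.14 (adjusted p = 0.00127).

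**Figure D3:**
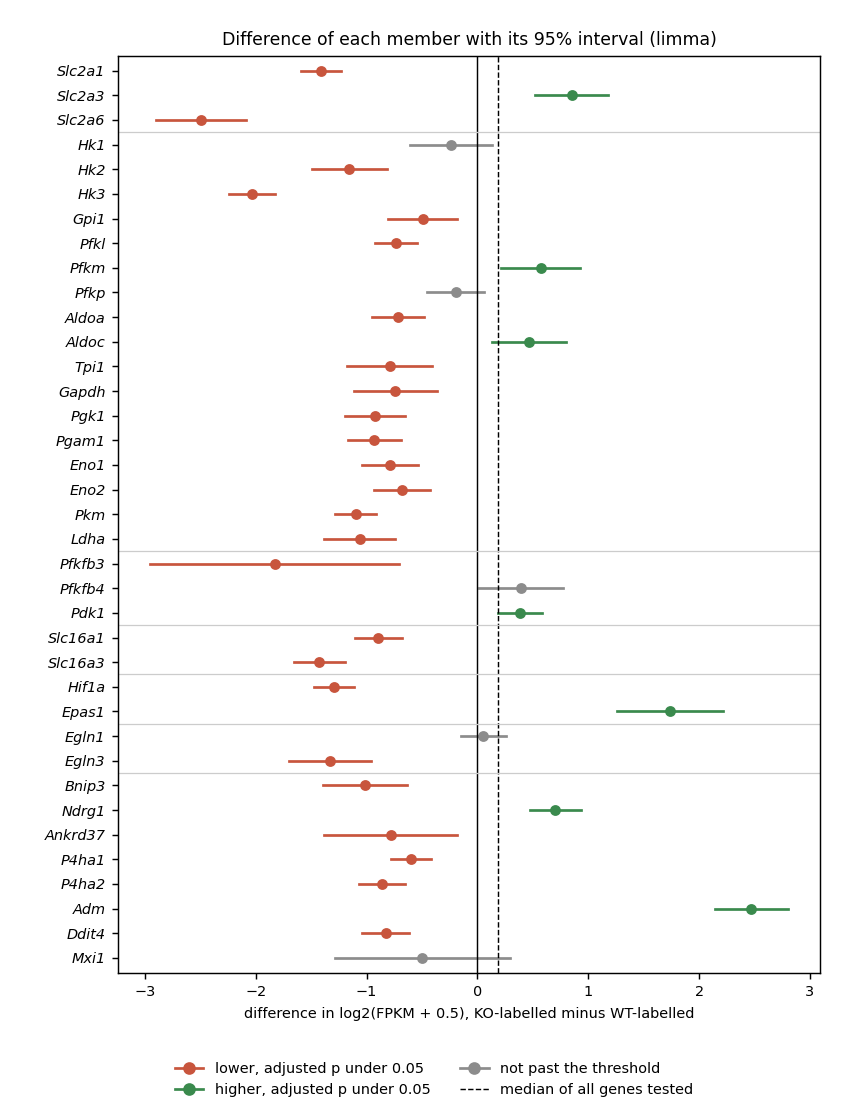
Difference in log2(FPKM + 0.5) between the KO-labelled and the WT-labelled libraries for each member (point) with its 95% interval from limma (line), in the order of the plot of FPKM by library. The dashed line is the median of all genes tested (0.19), and the 25 lower members lie left of 0 with their whole interval.

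The values of 4 of these genes are uncertain, because they have near-identical copies elsewhere in the genome among which fragments may have been divided. Copies were sought as transcripts with at least 90% identity over at least 200 bases and over at least 50% of their own length. For *Gapdh*, 12 processed pseudogenes averaged 1 FPKM or more (*Gm13292*, *Gm5345*, *Gm2606*, *Gm12070*, *Gm12537*, *Gm7336*, *Gm14760*, *Gm10359*, *Gm12671*, *Gm5559*, *Gm12033* and *Gm13394*), and the copies summed to 96.9% of the level of *Gapdh* itself. The copies of *Pgam1*, mainly *Pgam1-ps2*, summed to 87.7% of it, those of *Eno1*, mainly *Gm4735* and *Eno1b*, to 54.5%, and those of *Pgk1*, mainly *Pgk1-rs7* and *Gm5537*, to 31.1%. These copies showed differences close to their members, with log2 ratios of their summed FPKM of -0.77, -1.07, -0.81 and -0.93 in that order. Fragments divided between a gene and its copies would give such values, so they are no independent measure of these genes. *Eno1b* was low in the first replicate of both groups (15.8 and 3.56 FPKM) while the other 4 libraries ranged from 37.7 to 64.2 FPKM. All copies of *Pkm* (*Gm6560* and *Gm6992* among them), *Bnip3* (*Gm6532*), *Gpi1* (*Gm1840*), *Tpi1* (*Tpi-rs11*) and *Ldha* (*Ldha-ps2*) summed to between 1.15% and 6.18% of the respective member. With the copies added to their members, still 25 members were lower and 7 were higher, and the median was -0.78.

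**Figure D4:**
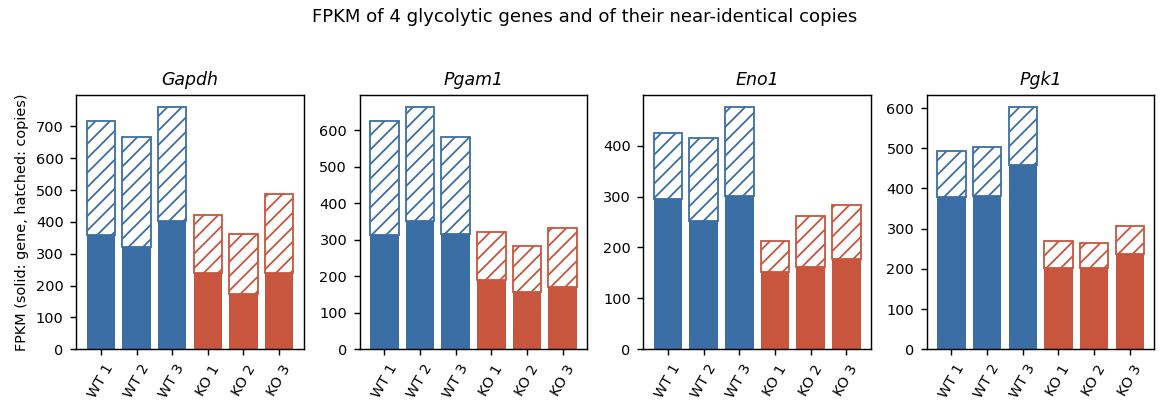
FPKM of *Gapdh*, *Pgam1*, *Eno1* and *Pgk1* (solid) with the summed FPKM of their near-identical copies (hatched) in each library, WT-labelled in blue and KO-labelled in red, on linear axes from 0. Gene and copies together reached 667.3 to 759.9 FPKM for *Gapdh* in the WT-labelled libraries and 361.0 to 489.3 FPKM in the KO-labelled ones.

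Pyruvate dehydrogenase kinases divert pyruvate away from the mitochondrion, and their genes were higher in sum. The member *Pdk1*, the HIF-responsive kinase, went from 6.11 ± 0.167 to 8.13 ± 0.372 FPKM (0.38 ± 0.08, adjusted p = 0.0115), a difference of 0.20 relative to all genes. It was not past the threshold without the second KO-labelled library (0.35, adjusted p = 0.0593). Median-of-ratios scaling (0.18, adjusted p = 0.140) and quantile normalization (0.23, adjusted p = 0.0728) ended its call too. Of 13 listed genes for the entry of pyruvate into mitochondria, 4 were higher and 9 did not pass. Over all genes tested 27.1% were higher, a similar share. The list had a median log2 difference of 0.16, against 0.19 over all genes. *Pdk4*, the starvation-induced kinase, was at 2.53, 2.29 and 2.02 FPKM in the WT-labelled and at 19.2, 19.4 and 18.9 FPKM in the KO-labelled libraries (2.83 ± 0.10, adjusted p = 4.44e-06). The other 3, named after their values were seen, were *Pdk2* (1.00), the phosphatase gene *Pdp1* (0.72) and *Pdha1*, a subunit of the dehydrogenase itself (0.41). The 4 kinases summed to 20.4 ± 1.11 and 39.9 ± 0.308 FPKM, a ratio of 1.95. *Pdk3*, the most abundant of them in the WT-labelled libraries, did not pass and was at 9.83 ± 0.593 and 7.66 ± 1.16 FPKM (-0.35 ± 0.12, adjusted p = 0.0619), so most of the larger sum was *Pdk4*. The share of *Pdk3* went from 48.2% to 19.2%, the share of *Pdk1* from 30.0% to 20.4% and that of *Pdk4* from 11.2% to 48.1%.

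Outside the member set, 28 other glycolytic enzymes, transporters and genes linked to them were listed. Of these 15 could be tested, of which 1 was lower (*Slc2a10*), 6 were higher and 8 did not pass. Over all genes tested, 10.5% were lower and 27.1% were higher. The median log2 difference of the 15 was 0.25, against 0.19 over all genes tested. *Slc2a8*, an intracellular hexose transporter, rose from 1.85 ± 0.251 to 7.89 ± 0.461 FPKM (1.84 ± 0.11, adjusted p = 5.27e-05). *Ldhb*, the heart-type lactate dehydrogenase, named after its values were seen, rose from 7.43 ± 1.31 to 16.6 ± 0.515 FPKM (1.12 ± 0.13, adjusted p = 0.000822). It supplied 1.47% to 1.54% of the lactate dehydrogenase sum in the WT-labelled and 6.21% to 7.15% in the KO-labelled libraries.

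The alpha subunits of HIF moved in opposite directions. *Hif1a*, on chromosome 12 (73901375 to 73947530), was at 69.8, 73.7 and 71.9 FPKM in the WT-labelled and at 27.6, 28.8 and 30.3 FPKM in the KO-labelled libraries, and fell by 1.30 ± 0.08 on the log2 scale (adjusted p = 4.21e-05). *Epas1*, which encodes HIF-2 alpha, lies on chromosome 17 (86753700 to 86833410). It was at 2.68, 2.86 and 1.71 FPKM against 9.93, 10.2 and 7.33 FPKM and rose by 1.74 ± 0.20 (adjusted p = 0.000822). Replicate 3 was the lowest within each group in *Epas1*. The ratio of *Hif1a* to *Epas1* was 26.0, 25.8 and 42.2 in the WT-labelled and 2.78, 2.84 and 4.13 in the KO-labelled libraries. *Hif1a* still made up 76.0% ± 3.91 of the sum of both in the KO-labelled libraries, against 96.8% ± 0.81. These are RNA levels, while HIF alpha subunits are regulated mainly through protein stability, which was not measured in these libraries.

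The prolyl hydroxylase genes differed in their calls. *Egln3*, which encodes PHD3 and is itself a HIF target, was at 7.26, 6.81 and 8.41 FPKM in the WT-labelled and at 2.88, 2.08 and 3.12 FPKM in the KO-labelled libraries (-1.33 ± 0.16, adjusted p = 0.000854). *Egln1*, which encodes PHD2, the main oxygen sensor, did not pass the test. It was at 23.1 ± 1.64 and 24.0 ± 0.88 FPKM, with a log2 difference of 0.05 (95% interval -0.15 to 0.26, adjusted p = 0.661) whose sign turned under median-of-ratios and upper-quartile scaling. *Egln2*, a prolyl hydroxylase gene outside the member set, named after its values were seen, was at 21.8 ± 2.88 and 21.6 ± 2.1 FPKM. It did not pass (-0.0033, limma adjusted p = 0.986). With *Egln2* the prolyl hydroxylase genes summed to 52.4 ± 2.36 and 48.3 ± 1.95 FPKM, and the groups overlapped. *Egln3* supplied 14.3% of that sum in the WT-labelled and 5.56% in the KO-labelled libraries. Of 14 other genes of the HIF pathway found in the table, *Egln2* among them, 13 could be tested. Of these 1 was lower, 1 was higher and 11 did not pass, against 10.5% lower and 27.1% higher of all genes tested. The remaining pair, named after their values were seen, were *Vhl*, the ubiquitin ligase subunit, which fell by 0.84 (adjusted p = 0.00122), and *Cited2*, an inhibitor that competes with HIF for its coactivator, which rose by 1.07 (adjusted p = 0.00122).

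Of the 8 HIF targets, 5 were lower, 2 were higher and 1 did not pass, with a median log2 difference of -0.69. Over all genes tested, 10.5% were lower and 27.1% were higher, with a median of 0.19. The share of higher targets was thus close to that of all genes, and the share of lower targets was larger. *Bnip3*, the gene of a receptor for the removal of mitochondria, was at 43.6, 44.2 and 55.3 FPKM in the WT-labelled and at 23.2, 19.2 and 28.0 FPKM in the KO-labelled libraries (-1.01 ± 0.16, adjusted p = 0.00317). *Ddit4*, which encodes the mTORC1 inhibitor REDD1, fell by 0.83 ± 0.09 (adjusted p = 0.000598) from 27.9 ± 0.523 to 15.5 ± 1.36 FPKM. The collagen prolyl hydroxylase subunits *P4ha1* and *P4ha2* fell by 0.60 and 0.86 (adjusted p = 0.00126 and 0.000459), and their sum went from 77.8 ± 2.98 to 49.5 ± 0.76 FPKM. *Ankrd37*, at 2.69, 2.66 and 5.48 FPKM against 1.79, 1.88 and 1.66 FPKM, was lower close to the threshold (-0.78 ± 0.25, adjusted p = 0.0481), with the third WT-labelled library far above the other two. It was not past the threshold without the first WT-labelled library (-0.93, adjusted p = 0.0524) or without KO-labelled replicate 1, 2 or 3 (-0.79, -0.82 and -0.75, adjusted p = 0.113, 0.104 and 0.116). Without WT-labelled replicate 3 the difference was smaller, -0.48, and passed (adjusted p = 0.0134). It also overlaps *Ufsp2*, which was at 8.35 FPKM on the opposite strand against its own 2.70. *Mxi1*, an antagonist of MYC, did not pass (-0.50, 95% interval -1.29 to 0.29), with overlapping groups of 5.96 to 11.6 and 3.44 to 7.42 FPKM. Its difference was -0.17 without the second KO-labelled and -0.27 without the second WT-labelled library.

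*Adm* and *Ndrg1* were the HIF targets that went up. *Adm*, which encodes the vasodilator peptide adrenomedullin and lies on chromosome 7 (110627661 to 110629820), was at 2.24, 1.89 and 2.74 FPKM in the WT-labelled and at 14.6, 13.5 and 16.4 FPKM in the KO-labelled libraries. Its rise by 2.47 ± 0.14 (adjusted p = 3.53e-05) was the largest of the 37 members in that direction. *Ndrg1*, a stress-response gene, went from 2.36 ± 0.145 to 4.16 ± 0.149 FPKM (0.70 ± 0.10, adjusted p = 0.00162). Of the 7 members that were higher, *Slc2a3*, *Epas1*, *Ndrg1* and *Adm* also passed after median-of-ratios scaling, while *Pfkm*, *Aldoc* and *Pdk1* did not.

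Other hypoxia-inducible genes outside the member set also divided. Of 54 listed symbols, 52 were found and 48 could be tested. Of these 18 were lower, 9 were higher and 21 did not pass, with a median log2 difference of -0.21. Over all genes tested, 10.5% were lower and 27.1% were higher, with a median of 0.19. Lower calls were thus more frequent in this list than over all genes, and higher calls were not. The list was chosen with earlier results of these data known, so this describes the list and tests nothing. *Vegfa*, the gene of the main angiogenic growth factor, was at 109.5, 123.6 and 121.3 FPKM in the WT-labelled and at 20.7, 20.5 and 20.4 FPKM in the KO-labelled libraries (-2.49 ± 0.08, adjusted p = 3.55e-06). *Hilpda*, a lipid droplet protein gene, went from 97.6 ± 15.9 to 14.3 ± 1.67 FPKM (-2.73, adjusted p = 2.42e-05). *Hmox1*, the heme oxygenase gene, which also responds to heme and oxidative stress, went from 3327 ± 319.7 to 399.5 ± 19.1 FPKM (-3.05, adjusted p = 3.85e-06). *Nos2*, the inducible nitric oxide synthase gene and a marker of inflammatory activation, was at 5.98, 6.86 and 3.94 FPKM against 0, 0.0444 and 0 FPKM. In each of these the groups lay far apart. Higher were *Zfp395* (1.67 ± 0.129 to 9.50 ± 0.0318 FPKM), *Edn1*, the endothelin gene (1.43 ± 0.272 to 6.47 ± 0.493 FPKM), *Selenbp1* (1.55 ± 0.146 to 6.09 ± 1.55 FPKM) and *Tfrc*, the transferrin receptor gene (11.3 ± 0.577 to 35.8 ± 1.49 FPKM).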

How the data were processed

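RNA-seq of 6 libraries of BMDMs was used, 3 per group, grouped by the treatment given in the labels. The authors deposited FPKM per gene for 55335 mouse Ensembl identifiers. Per the submitters' processing notes, the authors used fastp 0.17.1, HISAT2 2.1.0, DESeq2 1.18.1 and R 3.4.3. The counting tool, annotation and genome build are not given in the sources used here, and labels and methods name different RNA kits, library kits and sequencers. The authors tested counts with DESeq2. Counts are not part of this table and could not be recovered (39.9% to 43.8% of low values came within 0.1 of whole steps, against 20% by uniform spacing), so depth is unknown apart from an implied 1.77e+07 to 2.01e+07 fragments per library. FPKM columns summed to 302532 to 340717. FPKM is relative to the total of a library, so changes in very abundant genes shift all others.

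After adding a pseudocount of 0.5 FPKM and taking log2, the groups were compared in R 4.3.3 by a two-sided limma 3.58.1 fit (eBayes with a mean-variance trend and no covariate). Genes averaging under 0.5 FPKM were left out, and p-values were adjusted by Benjamini-Hochberg over the other 13367. The method was tested on simulated data. An exact permutation of 3 against 3 libraries cannot give a p below 0.1 and was not used. Symbols and positions came from GENCODE M21 (GRCm38), which matched 99.7% of identifiers, promoter windows from RefSeq, and copies from blastn 2.17.0. Python 3.11.15, pandas 2.3.3, numpy 2.4.6 and matplotlib 3.10.9 were used for the rest. Sums and shares of isozymes are descriptions without a test.

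Values per library are given for members with an adjusted p under 0.05 and an absolute log2 difference of at least 1 and for the main isozyme of each step. Genes of other pathway lists are named at an absolute log2 difference of at least 1.5, at most 8 per list by size, unless said otherwise. The members and lists were chosen with earlier results of these data known. Alternatives were other pseudocounts, filters, scalings and thresholds, a robust variance, the replicate number as a block and each library left out. Replicates 1 and 2 alone and the addition of copies were added after seeing the data.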

Additional observations from a re-analysis of the deposited data

How the results depend on the processing

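Of the 37 members, 27 kept their call and direction at an adjusted p under 0.05 in every alternative that tested them, among them *Slc2a1*, *Hk3*, *Pkm*, *Ldha*, *Hif1a*, *Epas1* and *Adm*. The members called lower numbered between 22 and 27 and those called higher between 3 and 7 at the adjusted p of 0.05. Leaving out each library in turn gave 22 to 26 lower members, 4 to 6 higher members, a median of -0.83 to -0.72 and 3479 to 5966 called genes, against 5027 with all libraries. Only 4 members were called higher with median-of-ratios scaling, quantile normalization, an adjusted p under 0.01, or replicates 1 and 2 alone with median-of-ratios scaling. With a mean of at least 5 FPKM, which left 30 members, 3 were higher. The fold threshold of the study, applied to the limma values, gave 11 lower and 2 higher. The median of the members was -0.96 with median-of-ratios scaling, -0.86 when upper quartiles were equalized and -0.98 with replicates 1 and 2 alone and median-of-ratios scaling. All called genes numbered 2739 with a mean of at least 5 FPKM, where 6835 genes were tested, 2929 at an adjusted p under 0.01 and 1485 by the fold threshold. *Egln1* turned to -0.16 with median-of-ratios scaling, to -0.033 when upper quartiles were equalized and to -0.18 with replicates 1 and 2 alone and median-of-ratios scaling, and ranged from -0.003 (without the third WT-labelled library) to 0.095 with 1 library left out. *Hk1* was lower also with replicates 1 and 2 alone (-0.33), and *Pfkp* with median-of-ratios scaling or quantile normalization (-0.39 in both). Without a filter on low values, which raised the genes tested to 28101, *Gpi1*, *Pfkm*, *Pfkfb3*, *Aldoc* and *Ankrd37* missed the threshold. Beyond the construction of an alternative, the cause was not tested.

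With the replicate number as a block, 25 members were lower, 7 were higher, the median was -0.78 and 5934 genes were called, and the block changed no call of a member. The numbers were not taken to pair the samples: deviations of same-numbered libraries correlated at 0.116, 0.036 and 0.264, and of the WT-labelled libraries only the third correlated best with its own number.

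Replicate 3 stood apart by transcript length. Its transcripts of at least 6000 bases were lower than in the other two by 0.42 (log2) in the WT-labelled and by 0.22 in the KO-labelled libraries, while the median difference between the groups was 0.22 for these and 0.20 for transcripts under 1500 bases. Replicates 1 and 2 alone gave 25 lower and 6 higher members. The number of libraries and the unknown depth limit the members under about 1 FPKM, such as *Slc2a3*.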

Other observations

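The pentose phosphate and glycogen branches, which leave glycolysis at its upper steps, were mixed. Of 17 listed genes, all tested, 6 were lower, 4 were higher and 7 did not pass, with a median log2 difference of -0.15. Over all genes tested, 10.5% were lower and 27.1% were higher, with a median of 0.19. Lower calls were thus more frequent in this list than over all genes, and higher calls were not. This too describes a list chosen with earlier results of these data known. *Gbe1* and *Gys1* also stand in the list of other hypoxia-inducible genes, so the lists are not separate. None of the 17 is a member, and the genes given here were chosen after their values were seen. *Gbe1*, the glycogen branching enzyme and a HIF-responsive gene, was at 10.8, 10.2 and 11.8 FPKM in the WT-labelled and at 4.06, 4.24 and 4.06 FPKM in the KO-labelled libraries (-1.31 ± 0.09, limma adjusted p = 9.40e-05). *Taldo1*, transaldolase, went from 332.3 ± 24.3 to 174.6 ± 9.98 FPKM and *Pgd*, the second dehydrogenase of the oxidative branch, from 137.8 ± 7.56 to 83.5 ± 0.414 FPKM, and both passed the test. The glycogen phosphorylases *Pygl* and *Pygb* were higher, by 0.66 and 0.61 on the log2 scale.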
